A study of Mus musculus with 4 samples.

Results

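The genes described here are the fat-digesting enzymes of the exocrine pancreas and the cofactor of pancreatic lipase: *Pnlip*, *Pnliprp1*, *Pnliprp2*, *Cel*, *Clps* and *Pla2g1b*. They were taken by gene symbol, not by any measured value, and all 6 were found among the 24391 genes of the deposited count table. RNA-seq had been done on whole pancreas of mouse embryos at day E18.5, in 2 RestpKO libraries (genotype Pdx1Cre RESTLoxP/LoxP) and 2 control libraries (Pdx1Cre RESTwt), all on a mixed strain background with C57BL/6. Every embryo thus carried the *Pdx1-Cre* transgene, and the genotypes differed in whether exon 4 of *Rest* was flanked by loxP sites. *Pdx1-Cre* acts in the pancreatic epithelium, so that the mesenchyme of RestpKO embryos kept an intact *Rest*. The study used these samples to look for genes that depend on REST, a repressor of neuronal and endocrine genes, in the fetal organ.

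Acinar cells make pancreatic enzymes and store them in zymogen granules until a meal. *Pnlip* encodes pancreatic triglyceride lipase, which splits dietary triglycerides in the gut, and *Clps* encodes colipase, the small protein that anchors this lipase to fat droplets covered with bile salts. *Pnliprp2* encodes a relative that also cleaves phospholipids and galactolipids, while the product of *Pnliprp1*, another relative, has little or no known activity on triglycerides. *Cel* encodes the bile salt-dependent carboxyl ester lipase, which acts on cholesterol esters, vitamin esters and a wide range of lipids, and *Pla2g1b* the phospholipase A2 that is secreted as a proenzyme and activated by trypsin. In rats, the lipase-related proteins are known to be made before birth and pancreatic triglyceride lipase mainly from weaning.

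*Pnlip*, *Pnliprp1* and *Pnliprp2* are paralogs that lie head to tail on the plus strand of chromosome 19, within 107 kb in the mm9 assembly. *Pnlip* is annotated from 58744855 to 58756276, *Pnliprp1* from 58803377 to 58818659 and *Pnliprp2* from 58834213 to 58852023. Their coding sequences were 66.8% to 70.2% identical in pairwise alignments, and their translations at least 63.6%. Since reads of 100 bases were counted only where they mapped uniquely, the resemblance of these transcripts decides whether a scarce paralog can be counted beside an abundant one. The longest identical run was 23 bases between the transcripts of *Pnlip* and *Pnliprp1*, 20 bases between *Pnlip* and *Pnliprp2*, and 19 bases between *Pnliprp1* and *Pnliprp2*, in each case far shorter than a read. The stretch of 69 coding bases around the codon of the active-site serine, among the most conserved parts of these enzymes, shows how densely the differences are spread. Capitals mark bases that neither of the other paralogs has at that position (GENCODE transcripts on the mm9 assembly, plus strand).
Pnlip, chr19:58749556-58749624, exon 6: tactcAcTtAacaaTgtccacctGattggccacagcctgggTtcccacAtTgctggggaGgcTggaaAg
Pnliprp1, chr19:58807858-58807926, exon 6: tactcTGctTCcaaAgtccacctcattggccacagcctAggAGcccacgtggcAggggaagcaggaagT
Pnliprp2, chr19:58837831-58837899, exon 5: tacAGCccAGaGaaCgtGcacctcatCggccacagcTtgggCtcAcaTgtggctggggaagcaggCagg
*Pnlip* differed from *Pnliprp1* at 17 of the 69 positions and from *Pnliprp2* at 21, and *Pnliprp1* differed from *Pnliprp2* at 20.

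The other members lie apart. *Cel* is annotated on the minus strand of chromosome 2 from 28411315 to 28418923, *Clps* on the minus strand of chromosome 17 from 28695155 to 28697711, and *Pla2g1b* on the plus strand of chromosome 5 from 115916271 to 115924731. No other annotated gene overlapped any of the 6, so that reads of an antisense or nested neighbor in this annotation were not a concern, although the strand setting of the counting is not given in the sources used here.

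RestpKO replicates 1 and 2 held 20738162 and 24134100 counts, and control replicates 1 and 2 held 16936759 and 18644088. Of all genes, 14550 passed the filter on low counts and were tested with edgeR's quasi-likelihood test. *Rest* itself was at 12.1 and 9.16 CPM (counts scaled per 1e6 of the TMM-adjusted library size) in RestpKO libraries, against 14.2 and 15.7 CPM in controls, a log2 fold change of −0.49 ± 0.23 (± standard error, as for all log2 fold changes below; adjusted p = 0.593, edgeR). Both RestpKO libraries thus lay below both controls, as in 21.2% of all genes tested. A gene-level count in whole pancreas also takes in the other exons and the cells without Cre, and their part in these values was not tested. *Xist* and Y-linked counts placed 1 female and 1 male library in each genotype, RestpKO replicate 2 and control replicate 1 being the females. The methods name more pancreases per genotype than there are libraries here, and do not say whether a library held 1 embryo or several. The replicates of each genotype differed beyond sampling noise (chi-square per degree of freedom 64.9 in RestpKO and 23.2 in controls). All 7 acinar markers were detected in every library, at a summed 134179 and 206430 CPM in RestpKO libraries and 141326 and 138502 CPM in controls. Liver markers (*Alb*, *Afp*, *Apoa1*, *Apoa2*) summed to 71.3 and 12.3 CPM in RestpKO libraries and to 498 and 13.1 CPM in controls. The 5 intestinal markers summed to 12.6 and 49.97 CPM in RestpKO libraries and to 33.0 and 32.6 CPM in controls, nearly all of it from *Vil1*, while *Fabp2* and *Cdx1* were at 0 in every library. Of 3 gastric markers *Gkn2* and *Tff1* were at 0 in every library. The 5 red cell markers summed to 20.4 and 20.4 CPM in RestpKO libraries and to 30.4 and 123 CPM in controls. Control replicate 2 was thus the highest for red cell markers, and the part of this in its other values was not tested.

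Together the 6 genes took 16.1% and 15.5% of all counts in RestpKO libraries and 14.9% and 13.5% in controls. *Pnliprp1* alone made up between 66.6% and 69.2% of these. It was the gene with the most counts in RestpKO replicate 1 and control replicate 1, and the next after the chymotrypsinogen gene *Ctrb1* in the remaining libraries. *Pnlip*, in contrast, took 0.000352% of counts in RestpKO replicate 1 (95% exact binomial interval 0.000276% to 0.000443%) and 0.000327% in RestpKO replicate 2 (0.000259% to 0.000408%), against 0.000384% (0.000296% to 0.000489%) and 0.000295% (0.000222% to 0.000384%) in control replicates 1 and 2. These intervals cover counting error only. For every count of *Pnlip* there were between 25814 and 31866 counts of *Pnliprp1* in the same library.

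**Figure D1:**
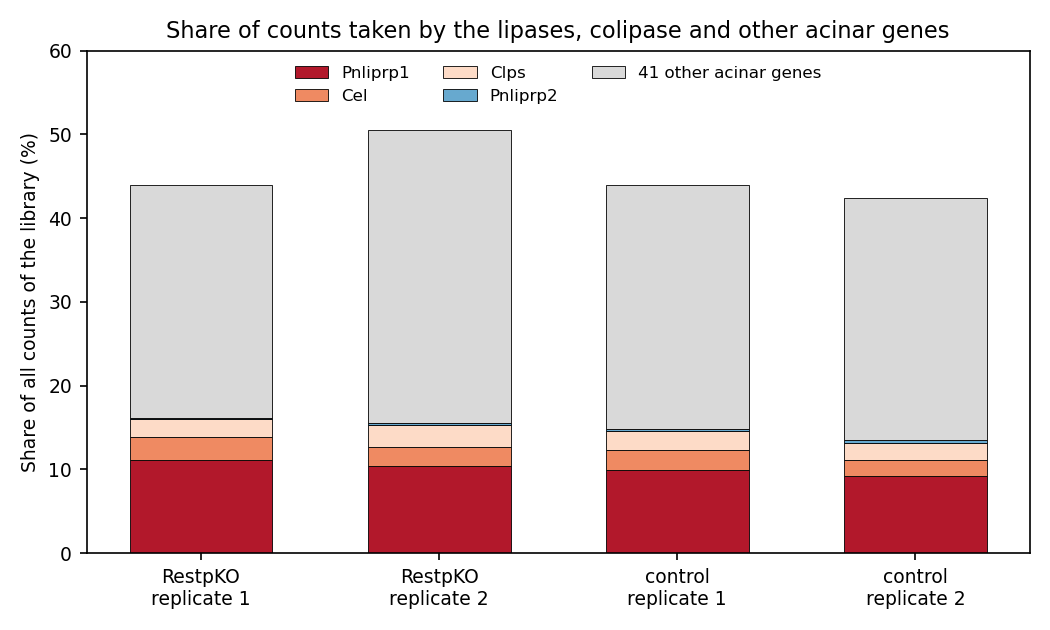
Share of all counts of each library, in percent, taken by *Pnliprp1*, *Cel*, *Clps* and *Pnliprp2* and by 41 other acinar genes, with RestpKO libraries left of controls. *Pnliprp1* forms the bulk of the lipase share in every library, and the tallest bar, RestpKO replicate 2, is raised by the other acinar genes (35.1% of counts) rather than by the lipases (15.5%). *Pla2g1b* and *Pnlip* are too small to draw.

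Levels of different genes can be compared roughly once the length of the transcript is taken into account. The full length was used, with no correction for fragment length. Such a correction matters most for short transcripts such as those of *Clps* (550 bases) and *Pla2g1b* (557 bases). On the scale of CPM per kb of the longest annotated coding transcript, the order was *Pnliprp1*, *Clps*, *Cel*, *Pnliprp2*, *Pla2g1b* and *Pnlip*, and it was the same in all 4 libraries. *Pnliprp1* was at 68548.5 ± 3222 CPM per kb in RestpKO and 57575 ± 5824 CPM per kb in controls (SD, n = 2 each), the second highest level of the 19181 genes with a known length in every library, after *Ctrb1*. *Clps* followed at 43087 ± 10287 CPM per kb in RestpKO and 37703 ± 4295 CPM per kb in controls, which gave it rank 4 in every library. *Pnliprp1* exceeded *Clps* by 1.41 to 1.85 times within a library, the narrowest step of the order. Whether this step would remain after a correction for fragment length was not tested. Colipase transcripts exceeded those of *Cel* by 2.77 to 4.11 times.

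*Cel* was at 12588 ± 456 CPM per kb in RestpKO and 10432 ± 2076 CPM per kb in controls, and *Pnliprp2* at 1349 ± 631 CPM per kb in RestpKO and 1823 ± 277 CPM per kb in controls. The lower part of the order fell away steeply. *Pla2g1b*, the phospholipase of the set, was at 57.3 ± 11.6 CPM per kb in RestpKO and 59.6 ± 12.7 CPM per kb in controls, 18.4 to 32.1 times below *Pnliprp2* in the same library. *Pnlip* was at 2.35 ± 0.102 CPM per kb in RestpKO and 2.24 ± 0.522 CPM per kb in controls, and ranked between 9162 and 10167 by level per length. The levels of neighbors in this order did not overlap over the 4 libraries. From *Pnliprp1* to *Pnlip*, genes that lie next to each other on the chromosome, the level per length differed by 23677 to 29229 times. Thus colipase, the cofactor of pancreatic lipase, was among the most abundant transcripts of the E18.5 pancreas in both genotypes, while the transcript of the triglyceride lipase itself was scarce.

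**Figure D2:**
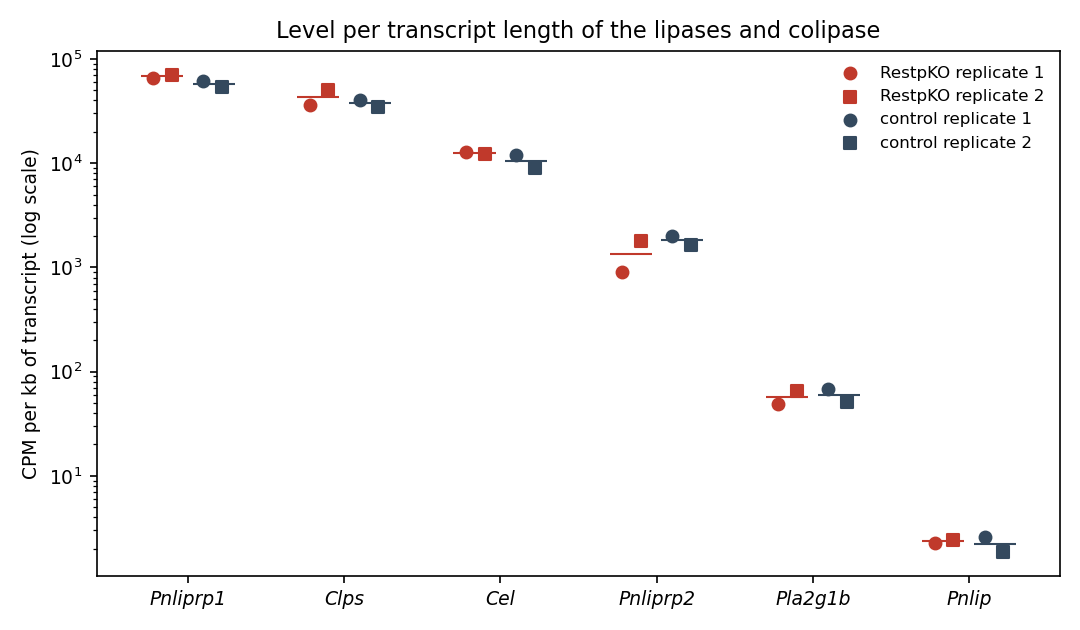
CPM per kb of transcript (log axis) of the 6 genes in order of level, each point 1 library, with RestpKO (red) left of control (blue) and a line at each group's mean. The steps between genes are far larger than those between libraries of 1 gene, with group means of 68548.5 and 57575 CPM per kb for *Pnliprp1* and 2.35 and 2.24 for *Pnlip*.

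Between genotypes, none of the 6 genes passed the test at an adjusted p under 0.05, nor did any reach an unadjusted p under 0.05 in edgeR or pass in DESeq2. Across all genes tested, edgeR called 0.0275%, all of them lower in RestpKO, DESeq2 called 0.716%, and 8.87% were at an unadjusted p under 0.05 in edgeR. Of the 6 log2 fold changes 4 were above 0 and 2 below, with a median of 0.13, beside a median of −0.00 over all genes. The members' median was −0.018 without RestpKO replicate 2, −0.035 without control replicate 2 and 0.32 without control replicate 1. In 2 of the 6 genes, *Pnliprp1* and *Cel*, both RestpKO libraries lay above both controls (21.5% of all genes tested), in none did both lie below (21.2% of all genes), and in 4 the groups overlapped. Whole-organ RNA was measured, so a different number of acinar cells and a different amount of RNA per acinar cell cannot be told apart.

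The triglyceride lipase comes first among the members by its role. *Pnlip* was counted 73 and 79 times in RestpKO libraries and 65 and 55 times in controls, which is 3.38 and 3.60 CPM in RestpKO against 3.87 and 2.77 CPM in controls. The RestpKO values lay between those of the controls. Its log2 fold change was 0.08 ± 0.32 (adjusted p = 0.943, edgeR), and the 95% interval of the fold change ran from 0.623 to 1.78. Leaving out control replicate 2 turned the sign (log2 fold change −0.15).

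*Clps* was at 19697 and 27698 CPM in RestpKO libraries and at 22407 and 19066 CPM in controls. RestpKO replicate 2 was the highest of the 4 libraries and RestpKO replicate 1 lay between the controls. The log2 fold change was 0.19 ± 0.28 (edgeR, adjusted p = 0.829, fold change interval 0.729 to 1.79). Without RestpKO replicate 2 it was −0.07, and without RestpKO replicate 1 it was 0.42, so that the direction for colipase rested on RestpKO replicate 2.

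*Pnliprp1*, whose product has no well-defined substrate, was at 107291 and 114669 CPM in RestpKO libraries and at 99882 and 86547 CPM in controls. The groups did not overlap, yet the nearest libraries of the 2 genotypes were closer to each other than the controls were. The log2 fold change was 0.25 ± 0.26 (edgeR, adjusted p = 0.762, fold change interval 0.778 to 1.82). For *Pnliprp2*, the lipase of phospholipids and galactolipids, the values were 1414 and 2812 CPM in RestpKO libraries and 3163 and 2550 CPM in controls. RestpKO replicate 1 stood apart, the other libraries being 1.80 to 2.24 times higher, while RestpKO replicate 2 lay between the controls. The log2 fold change of −0.43 ± 0.34 (edgeR, adjusted p = 0.703, fold change interval 0.425 to 1.29) was −0.02 without RestpKO replicate 1 and −1.01 without RestpKO replicate 2 (adjusted p = 0.971 and 0.269 from edgeR), so its size depended on which RestpKO library was kept. In such fits 1 library stands for a genotype and is assumed to vary like the libraries of the other genotype, which alone give the spread.

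*Cel*, the carboxyl ester lipase, was at 26634 and 25304 CPM in RestpKO libraries and at 24551 and 18493 CPM in controls. Both RestpKO libraries lay above both controls, the nearest ones, both from females, differing by 1.03 times. The log2 fold change was 0.27 ± 0.26 (edgeR, adjusted p = 0.746, fold change interval 0.789 to 1.85), and it was 0.08 without control replicate 2, the library with the lowest value. *Pla2g1b* was at 27.4 and 36.5 CPM in RestpKO libraries and at 38.2 and 28.2 CPM in controls. Each genotype held a higher and a lower library, the females being the higher ones in both. Its log2 fold change was −0.06 ± 0.23 (edgeR, adjusted p = 0.941, fold change interval 0.660 to 1.40). Compared within sex, with 1 library per genotype and no test, RestpKO over control was 0.955 in females and 0.970 in males for *Pla2g1b*, 0.889 and 0.555 for *Pnliprp2*, 1.15 and 1.24 for *Pnliprp1*, 1.03 and 1.44 for *Cel*, 1.24 and 1.03 for *Clps*, and 0.930 and 1.22 for *Pnlip*.

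**Figure D3:**
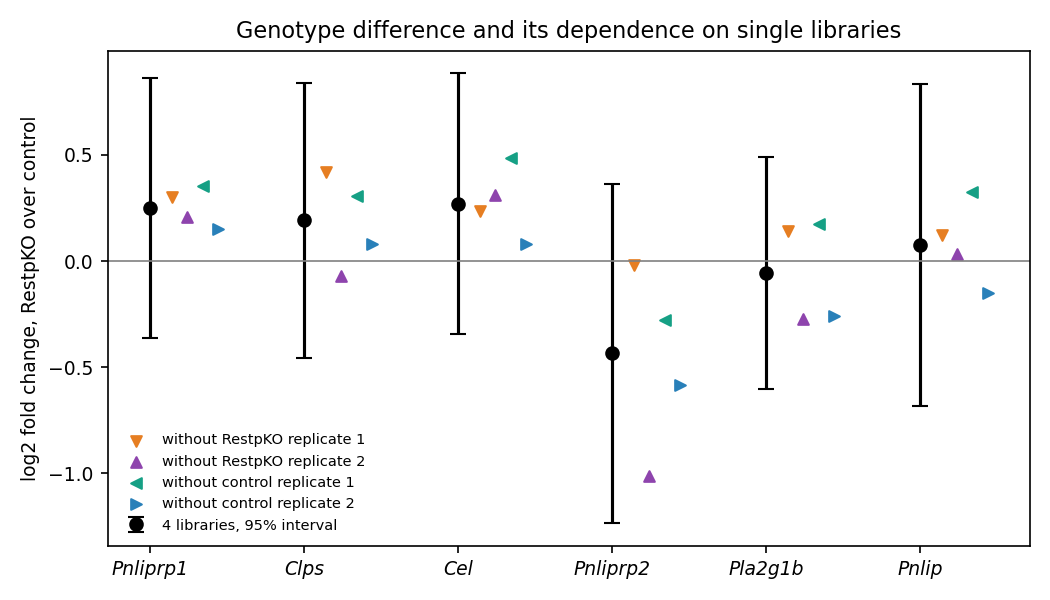
Log2 fold change of RestpKO over control for each gene, with the 95% interval from edgeR over the 4 libraries (black) and the value after leaving out each library in turn (colored markers). All 6 intervals include 0, *Pnliprp2* moves between −0.02 and −1.01 with the RestpKO library left out, and *Clps*, *Pla2g1b* and *Pnlip* each cross 0 without some library.

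The ratio of a pair of genes within a library does not depend on how libraries are scaled. With 2 libraries per genotype the smallest two-sided p of an exact permutation test is 0.333, so these values are mainly a description. Relative to *Pnliprp1*, *Cel* kept a nearly constant proportion, with 0.248 and 0.221 counts per count of *Pnliprp1* in RestpKO libraries and 0.246 and 0.214 in controls. *Clps* had 0.184 and 0.242 counts per count of *Pnliprp1* in RestpKO libraries and 0.224 and 0.220 in controls, so that both extremes were RestpKO libraries. *Pnliprp2* had 0.0132 and 0.0245 in RestpKO libraries and 0.0317 and 0.0295 in controls, both RestpKO libraries being below both controls. The ratios of *Pnlip* and *Pla2g1b* to *Pnliprp1* were likewise below both controls in both RestpKO libraries. For *Pnlip* they were 3.15e-05 and 3.14e-05 in RestpKO libraries and 3.87e-05 and 3.21e-05 in controls. The nearest of these lie within the counting error of *Pnlip*. How often ratios of other genes to *Pnliprp1* separate the genotypes was not computed. The denominator *Pnliprp1* was itself above both controls in both RestpKO libraries. In CPM the groups overlapped for *Pnliprp2*, *Pnlip* and *Pla2g1b*. The difference of the mean log2 ratios was −0.76 for *Pnliprp2* (exact permutation p = 0.333, adjusted 0.556 over 5 ratios) and 0.03 for *Cel* (exact permutation p = 0.667, adjusted 0.833). For *Pnliprp2* it was −0.32 without RestpKO replicate 1 and −1.21 without RestpKO replicate 2. The denominator *Pnliprp1* was chosen after seeing that *Pnlip*, the one set at first, has under 100 counts a library. Relative to *Pnlip*, the mean log2 ratio of *Clps* was 12.71 ± 0.29 in RestpKO and 12.62 ± 0.17 in controls (SD, n = 2 each), a difference smaller than the spread between replicates. The ratios of *Pnliprp1*, *Pnliprp2* and *Cel* to *Pnlip* had an exact permutation p of 0.333, the smallest possible (adjusted 0.556 over 5 ratios). Those of *Clps* and *Pla2g1b* had an exact permutation p of 0.667.

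**Figure D4:**
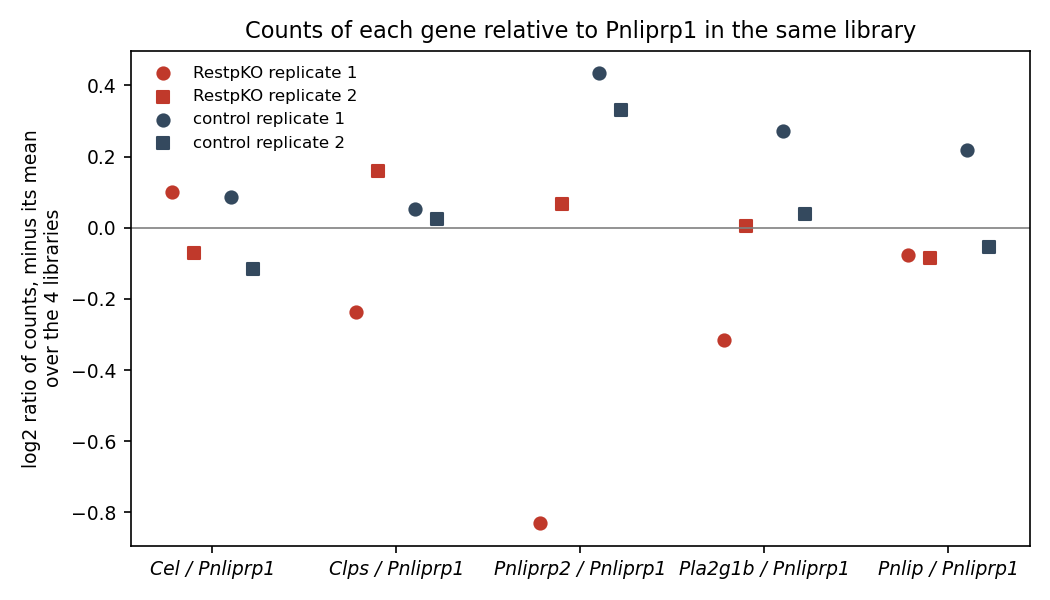
Log2 ratio of the counts of each gene to those of *Pnliprp1* in the same library, minus its mean over the 4 libraries, with RestpKO (red) left of control (blue). *Pnliprp2* in RestpKO replicate 1 lies farthest from 0 of all points, and the *Cel* ratios of RestpKO and control interleave.

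The other products of acinar cells were followed in the same fit. Of 43 listed genes of digestive enzymes, granule proteins and acinar transcription factors 41 were in the table, 4 of these had no count in any library, and 37 were tested. None passed in edgeR or DESeq2, at an unadjusted p under 0.05 stood 3 higher and 0 lower genes (8.87% of all genes tested, 474 higher and 816 lower), and 26 log2 fold changes were above 0 and 11 below, with a median of 0.07. Both RestpKO libraries lay above both controls in 8 of the 37 (21.6%, beside 21.5% of all genes tested) and below in 3 (8.11%, beside 21.2%). Those with the most counts were *Ctrb1* (chymotrypsinogen B), *Cela2a* (an elastase), *Cpb1* and *Cpa1* (carboxypeptidases), with log2 fold changes of 0.30, 0.28, −0.20 and 0.32 and overlapping groups. *Ctrb1* was at 94284 and 150762 CPM in RestpKO libraries and 98037 and 101026 CPM in controls, so that RestpKO replicate 2 stood apart for this gene, as it did not for *Pnliprp1* or *Cel*. Of all counts of acinar genes, the lipases and colipase took 36.7% and 30.7% in RestpKO libraries and 33.9% and 31.7% in controls. Of islet markers, 7 genes summed to 4329 and 6410 CPM in RestpKO libraries and to 2979.6 and 2001 CPM in controls, and 6 mesenchyme markers summed to 4095 and 6634 CPM in RestpKO libraries and to 7708 and 7073 CPM in controls. Most of the mesenchyme sum came from *Col1a1*, *Col1a2* and *Col3a1*. In both RestpKO libraries *Col1a1*, *Col1a2* and *Pdgfra* were below both controls, a pattern held by 21.2% of all genes tested. The groups overlapped for *Col3a1*, *Vim* and *Pdgfrb*. The part of the islet and mesenchyme differences in the values of the lipases was not tested.

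None of the 4 acinar transcription factors named here passed the test. *Ptf1a*, the subunit of the PTF1 complex that activates acinar enzyme genes, was at 39.4 and 40.9 CPM in RestpKO libraries and at 38.2 and 41.4 CPM in controls, with a fold change interval of 0.765 to 1.33. *Rbpjl*, its acinar partner, was at 332 and 339 CPM in RestpKO libraries and at 327 and 314 CPM in controls (interval 0.777 to 1.41). *Bhlha15*, which shapes the secretory apparatus of acinar cells, was at 281 and 366 CPM in RestpKO libraries and at 319 and 289 CPM in controls, and *Nr5a2*, a nuclear receptor of acinar enzyme genes, at 66.2 and 43.5 CPM in RestpKO libraries and at 69.8 and 64.3 CPM in controls. For *Bhlha15* the fold change interval was 0.758 to 1.499 (adjusted p = 0.890, edgeR). *Nr5a2* was lowest in RestpKO replicate 2, and its log2 fold change of −0.29 had a fold change interval of 0.566 to 1.18 (adjusted p = 0.703, edgeR).

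Genes related to the members in sequence or reaction were a separate list of 32 lipases, phospholipases A2, carboxylesterases, cholinesterase-like and colipase-like proteins. All 32 were in the table, 4 had no count in any library and 21 were tested. None passed in edgeR or DESeq2, 12 log2 fold changes were above 0 and 9 below (median 0.06), and an unadjusted p under 0.05 was reached by 4 genes that were higher and 1 that was lower, beside 8.87% of all genes tested. The most abundant relatives were far below *Pnliprp1* in counts. *Mgll*, the monoglyceride lipase of most tissues, was at 109.8 and 128 CPM in RestpKO libraries and at 101 and 121 CPM in controls, and *Lpl*, the lipoprotein lipase of the vessel wall, at 81.1 and 61.4 CPM in RestpKO libraries and at 98.8 and 79.4 CPM in controls. *Pla2g12a* and *Pla2g6*, phospholipases A2 that are not confined to the pancreas, had log2 fold changes of 0.06 and 0.00. *Pla2g2f*, a secreted phospholipase A2 named here after its values were seen, was at 14.7 and 16.3 CPM in RestpKO libraries and at 10.3 and 5.85 CPM in controls (log2 fold change 0.94 ± 0.29, edgeR adjusted p = 0.463). The colipase-like gene *Clpsl2* had no count in any library.

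**Figure D5:**
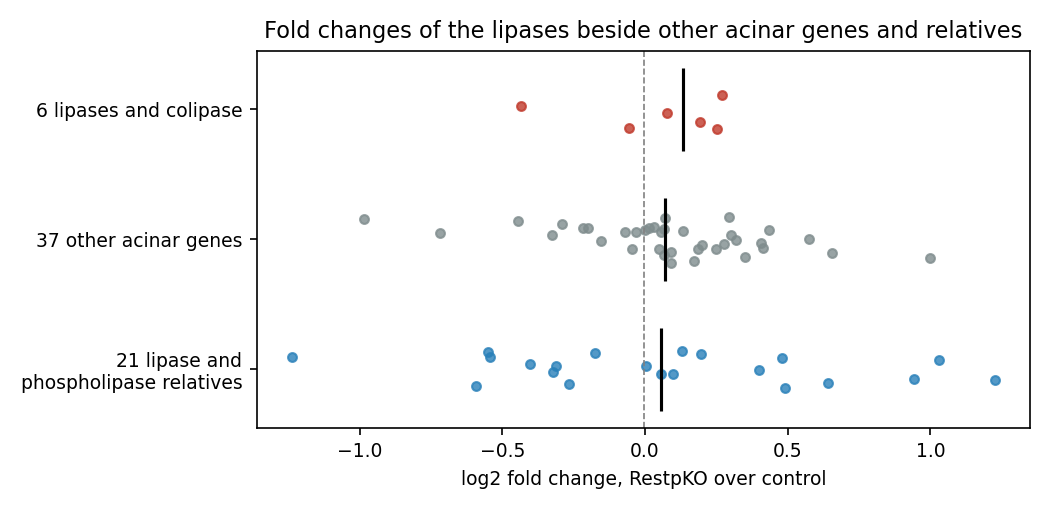
Log2 fold change of RestpKO over control for the 6 lipases and colipase, 37 other acinar genes and 21 relatives, each point 1 gene and each short line the median of its list (0.13, 0.07 and 0.06). The dashed line is the median over all genes tested (−0.00), and the members span −0.43 to 0.27, inside the range of both other lists.

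The promoters of the members differ widely in the motifs that they hold. RefSeq sequences (GRCm38.p6, another build than that of the counts) were at hand for 5 of the 6 genes, *Clps* being the exception. The 250 bases before the start were searched on both strands for CACCTG and TTTCCC, the E-box and TC-box of acinar enzyme promoters bound by PTF1, for TATAAA, and for TCAGCACC and GGACAG, pieces of the left and right parts of the REST binding site. No motif searched contains another. *Cel* is shown because it held the most matches, *Pnliprp1* and *Pnlip* because they bound the range of expression. Capitals mark the matches.
Cel, chr2:28563404-28563653, minus strand: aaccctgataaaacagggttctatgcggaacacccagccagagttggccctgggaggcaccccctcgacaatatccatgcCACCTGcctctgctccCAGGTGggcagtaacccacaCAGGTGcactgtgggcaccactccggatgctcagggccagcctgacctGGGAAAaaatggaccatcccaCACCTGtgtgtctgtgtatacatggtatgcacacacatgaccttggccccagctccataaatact
Pnliprp1, chr19:58728637-58728886, plus strand: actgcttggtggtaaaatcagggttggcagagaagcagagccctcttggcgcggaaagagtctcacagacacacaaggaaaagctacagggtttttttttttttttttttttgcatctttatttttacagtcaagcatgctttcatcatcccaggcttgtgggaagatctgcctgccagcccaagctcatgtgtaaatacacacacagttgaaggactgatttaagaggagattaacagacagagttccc
Pnlip, chr19:58670115-58670364, plus strand: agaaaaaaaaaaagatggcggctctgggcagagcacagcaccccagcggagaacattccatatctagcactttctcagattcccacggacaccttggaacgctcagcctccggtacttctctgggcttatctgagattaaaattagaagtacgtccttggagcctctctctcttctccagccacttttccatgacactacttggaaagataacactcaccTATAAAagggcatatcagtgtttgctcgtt
*Cel* held 4 CACCTG and 1 TTTCCC, read on either strand, the CACCTG matches lying at −170, −154, −134 and −65 and the TTTCCC match at −86 from its start. Among all 32851 such promoters, 17.2% held CACCTG, 21.9% held TTTCCC and 3.61% held both. *Pnlip* held only TATAAA, 30 bases before its start (12.4% of promoters), and *Pnliprp1*, with the most transcripts of the set, held none of the motifs. *Pnliprp2* held 1 CACCTG and 1 GGACAG (18.7% of promoters), *Pla2g1b* held no match, and TCAGCACC (1.32% of promoters) was in none of the 5. The number of matches thus did not follow the order of the levels, and it says nothing of binding.

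Genes with a pattern most like that of the members were sought over the 4 libraries, by the Euclidean distance between a gene's log2 CPM, centred on its own mean, and the mean of the members' centred profiles. Among 9196 genes with at least 10 CPM, the nearest were *Cstb* (cystatin B, an inhibitor of lysosomal proteases, distance 0.032), *Serpina6* (the corticosteroid-binding globulin, 0.047), *Neu1* (a lysosomal sialidase, 0.047), *Gss* (glutathione synthetase, 0.052) and *Spats2l* (0.063), beside 0.49 for the gene at the median. None of these belongs to the acinar list, whose distances were not compared as a group. In this mean profile RestpKO replicate 2 and control replicate 1 were high (0.19 and 0.15) and RestpKO replicate 1 and control replicate 2 low (−0.15 and −0.19), the females being the high ones in both genotypes. This mean did not describe every member. In RestpKO replicate 1 *Pnliprp2* was at −0.75, *Pla2g1b* at −0.23 and *Clps* at −0.16, while *Pnlip*, *Pnliprp1* and *Cel* were at 0.001, 0.08 and 0.18. The low mean of that library thus came largely from *Pnliprp2*. *Cel* was at 0.11 in RestpKO replicate 2. Within the set, *Pla2g1b* lay nearest to the mean profile (0.13) and *Pnliprp2* farthest (0.72).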

How the data were processed

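Genotype and replicate number of each library came from its GEO title and the matching column name. The authors aligned 100-bp paired-end reads to mm9 with STAR, kept unique alignments and made the deposited counts per UCSC gene with featureCounts (1.5 in the submitters' processing notes). Whether pairs or reads were counted is not given in the sources used here.

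Counts were tested in R 4.3.3 with edgeR 4.0.16 (filterByExpr, TMM, glmQLFit, glmQLFTest; genotype as the only term; Benjamini-Hochberg over 14550 genes; threshold 0.05). The procedure was also run on simulated counts drawn with the dispersions fitted to these libraries. No library was made to stand apart in them, so that run does not check such a case. The standard error is the size of the log2 fold change over the square root of F. Lengths and positions came from GENCODE annotation of mm9. Alternatives were other scalings and filters, DESeq2 1.42.0, limma-voom (limma 3.58.1), a replicate block, sex as a term and leaving out each library. Nothing states how many litters or embryos a library came from, and p-values measure the spread between these libraries. The members, lists, naming rule (all members, *Rest*, the most abundant listed genes, chosen transcription factors and the 5 most similar genes) and alternatives were chosen with earlier results of these data known.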

Additional observations from a re-analysis of the deposited data

How the results depend on the processing

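No member passed under any of the 13 alternatives, and the lowest adjusted p of a member was 0.246 (*Clps* without RestpKO replicate 1). In the 4 fits without 1 library, that one included, the spread comes from the other genotype alone. Of 78 log2 fold changes of members under these alternatives, 74 kept their sign, most of them in refits of the same 4 libraries. Every change of sign came from a fit without 1 library. Those that turned were *Pla2g1b* (0.14 without RestpKO replicate 1 and 0.17 without control replicate 1, range without 1 library −0.27 to 0.17), *Clps* (−0.070 without RestpKO replicate 2, range −0.070 to 0.42) and *Pnlip* (−0.15 without control replicate 2, range −0.15 to 0.33). Over all genes, 4 were called in the main analysis, 1 with library sizes alone, 102 with DESeq2, 247 with sex as a term, and 514, 1, 208 and 100 without RestpKO replicate 1, RestpKO replicate 2, control replicate 1 and control replicate 2. The median log2 fold change of the relatives was −0.025 with library sizes alone and ranged from −0.030 to 0.13 without 1 library, and that of the other acinar genes from −0.049 to 0.27. The median over the members ranged from −0.035 to 0.32 without 1 library. The causes of these shifts were not tested. The deviations of libraries with the same replicate number had a correlation of 0.048. With 2 libraries per genotype this value cannot show whether the samples were paired. A fit with the replicate number as a block called 4 genes and no member. Counting error was small except for *Pnlip*, whose 55 to 79 counts a library limit its precision, and 2 libraries per genotype limit all tests.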
